A study of Mus musculus with 2 samples.

Results

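The uroplakins are the 5 genes Upk1a, Upk1b, Upk2, Upk3a and Upk3b, and they were followed here in ureters of mouse embryos at stage E14.5. They were taken as the array probes that carry one of these names, which gave 1 probe per gene, 5 of the 39429 probes on the array. All 5 passed the filter on dim probes and so were among the 21978 genes tested. RNA of Tbx18(cre/+);Bmp4(fl/fl) embryos, labelled Bmp4cKO, was set against RNA of Tbx18(+/+);Bmp4(fl/?) embryos, labelled control, all of strain NMRI. The question mark is the label's own, so the second Bmp4 allele of the controls is not specified. Both genotypes thus carry a floxed Bmp4 allele, and the cre sits in the Tbx18 locus, so that it acts in cells with a history of Tbx18 activity and leaves 1 intact Tbx18 copy. There were 2 two-colour arrays with the dyes swapped between them, each holding 1 RNA of each genotype. On replicate 1, labelled female, the RNA labelled control carried the red dye AlexaFluor647 and the RNA labelled Bmp4cKO the green dye, AlexaFluor555. The dyes were exchanged on replicate 2, which is labelled male. Replicate, sex label and dye order thus differ together between the arrays and cannot be told apart. The ureters were dissected mechanically, and the sources used here do not say whether an RNA came from 1 embryo or from several. The p-values rest on the spread between these 2 arrays and on a variance shared over all genes. They therefore cannot be read as measuring a spread between embryos.

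Uroplakins are membrane proteins that assemble into the hexagonal plaques covering the luminal surface of the urothelium, the stretchable lining of the renal pelvis, ureter and bladder. UPK1A and UPK1B are tetraspanins, proteins that cross the membrane 4 times. UPK2, UPK3A and UPK3B cross it once, and each leaves the endoplasmic reticulum as a heterodimer: UPK1A pairs with UPK2, and UPK1B pairs with UPK3A or UPK3B. Upk3b and Upk1b are also transcribed in mesothelium, the cell sheet that covers internal organs, so their RNA in a dissected ureter need not all come from its lining. In the ureter, BMP4 is a secreted signal made by the mesenchyme around the epithelial tube.

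The probes are shown because each uroplakin was read by 1 of them. The lines give the last 30 bases of each 60-base probe, 5′ to 3′, taken from the array files, with the polyadenylation signal AATAAA in capitals where it occurs.
Upk1a: gttggctggacacccAATAAAtactggctg
Upk1b: gacgactctcattcctgtctatgtttaatg
Upk2: ctcttaactgtacttaattctcacAATAAA
Upk3a: aaatgacacacgactcacagatcacccagg
Upk3b: tggctattaatgacagtcggctacctagcc
Of the 5 probes, those of Upk1a and Upk2 hold this signal, as do 12.6% of all probes on the array. In the array's mouse build mm9 the Upk1a probe lies on chromosome 7 from 31388111 to 31388170, the Upk1b probe on chromosome 16 from 38773859 to 38773918 and the Upk2 probe on chromosome 9 from 44260822 to 44260881, all on the minus strand. The Upk3b probe lies on chromosome 5 from 136520522 to 136520581, on the plus strand. The Upk3a probe, on the plus strand of chromosome 15 from 84851819 to 84852720, spans 902 bases of genome with its 60 bases, so its sequence is split on the genome. Exon and UTR annotation of mm9 was not used here. The longest run of bases that probes of 2 different uroplakin genes share is 7.

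The 2 arrays share a slide and a scan, and each channel had 69.3% to 74.6% of its probe spots well above background. None was saturated. Bmp4, the gene the genotype removes, went against its label: the log2 ratio, taken throughout as Bmp4cKO over control by the dye labels, was 3.04 on replicate 1 and 3.71 on replicate 2. Another Bmp4 probe was not well above background in either RNA on either array and did not pass the filter. Whether the probe used lies within the deleted part was not tested. Tbx18 was higher too, at 0.85 and 1.08, though the genotype labelled Bmp4cKO has 1 intact Tbx18 copy. The sample titles name the comparison as Bmp4cKO against control, and read in that order the authors' deposited table has the opposite direction, with signed folds of -8.16 and -13.9 for Bmp4 and negative folds for all 5 uroplakins. Each direction below follows the dye labels and is the direction of Bmp4; it turns if red and green were assigned the other way. The sex labels did not all hold either, by genes named after their values were seen. On replicate 2 the RNA labelled control had a processed signal of 2720 for the Y-linked gene Ddx3y. The RNA labelled Bmp4cKO, also labelled male, had no Ddx3y signal well above background and had 1464 for Xist. Sex-linked signals and genotype label thus differed together on replicate 2 and cannot be told apart there. On replicate 1 Ddx3y was well above background in neither RNA, and Xist was in both. Values without replicate 2 are those given for replicate 1.

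On both arrays, all 5 uroplakins were higher in the RNA labelled Bmp4cKO, as they were in the fit over all genes. Of the 21978 genes tested, 6198 were higher on both arrays and 6734 were lower on both. Of all genes tested, 0.887% were called higher (limma, Benjamini-Hochberg adjusted p under 0.05) and 1.02% lower. At least 2-fold higher on both arrays were 0.578% of all genes and all 5 uroplakins, and 0.619% of genes were at least 2-fold lower on both. Of these 5, Upk3b passed the filter on dim probes only through the RNA labelled Bmp4cKO, where it was high. Upk1a, Upk1b, Upk2 and Upk3a were well above background in both RNAs on both arrays. The mean log2 ratios ran from 1.31 for Upk3b to 3.72 for Upk1b, with a median of 2.41, against a median of -0.01 over all genes. In whole-ureter RNA, a change in the number of urothelial cells and a change in uroplakin RNA per cell cannot be told apart. Every member had a larger ratio on replicate 2 than on replicate 1, as did 143 of the 195 genes called higher. On replicate 2 the RNAs also differed in sex-linked signals.

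**Figure D1:**
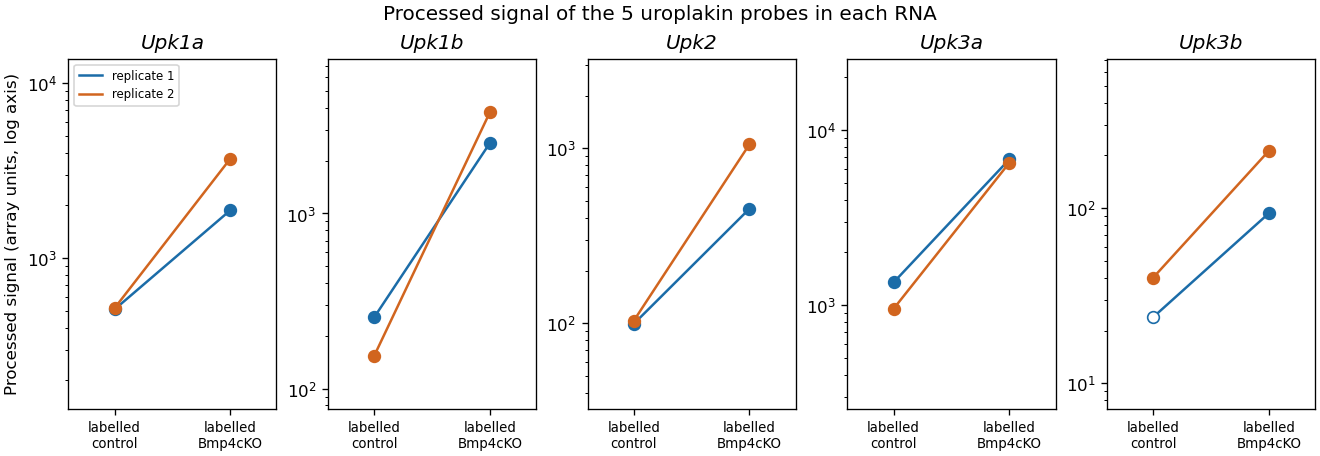
Processed signal of each uroplakin probe (array units, log axis) in the RNA labelled control and the RNA labelled Bmp4cKO; a line joins the 2 RNAs of an array, blue for replicate 1 and orange for replicate 2, and an open circle is not well above background. Each panel spans the same range of ratios and has its own scale, so slopes can be compared between genes and heights cannot; the steepest lines are those of Upk1b, from 255 to 2523 and from 154 to 3779.

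Among the tetraspanins, Upk1b had the largest ratio of the 21978 genes. Its processed signal, the scanner software's background-subtracted and dye-normalized intensity, was 255 in the RNA labelled control and 2523 in the RNA labelled Bmp4cKO on replicate 1. On replicate 2 it was 154 and 3779. Both signals of the RNA labelled Bmp4cKO lay above both of the RNA labelled control, a separation that was not counted over all genes. The 2 RNAs of a label were read in different dyes on different arrays, so their signals differ in more than the RNA. After loess normalization the log2 ratio was 3.14 and 4.30, on average 3.72 ± 0.82 (SD, n = 2 arrays; 95% interval of limma 2.99 to 4.44; adjusted p by limma = 0.020), or 13.1-fold. Upk1b is the only uroplakin printed on the array as 10 spots. Its spots ran from 2.92 to 3.22 on replicate 1, with an SD of 0.095, and from 4.19 to 4.34 on replicate 2, with an SD of 0.046. These SDs are those of repeat spots of 1 RNA pair and hold no difference between embryos.

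Upk1a, the other tetraspanin, had processed signals of 509.8 (RNA labelled control) and 1875 (RNA labelled Bmp4cKO) on replicate 1. On replicate 2 they were 519 and 3694. The RNAs labelled control had nearly the same signal, while those labelled Bmp4cKO differed between the arrays. Each pair was read in different dyes on different arrays, so these signals cannot place the difference in 1 RNA. The log2 ratio was 1.72 and 2.77, on average 2.25 ± 0.74 (SD, n = 2 arrays; 95% interval 1.58 to 2.92; adjusted p by limma = 0.034), or 4.74-fold. It ranked 20 of 21978 from the top.

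Among the single-pass partners, Upk3a and Upk2 had like ratios and Upk3b a smaller one. UPK3A is the usual partner of UPK1B in urothelial plaques. Its processed signals were 1349 and 6794 on replicate 1 and 954 and 6495 on replicate 2, in the RNA labelled control and the RNA labelled Bmp4cKO in turn. On each array the signal was higher in the RNA labelled Bmp4cKO. The RNAs labelled Bmp4cKO lay closer together than those labelled control, though each pair was read in different dyes on different arrays. The log2 ratio was 2.18 and 2.78, on average 2.48 ± 0.42 (SD, n = 2 arrays; 95% interval 2.03 to 2.94; adjusted p by limma = 0.019), or 5.59-fold.

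Upk2 encodes the partner of UPK1A, which is made as a precursor and cleaved on its way to the surface. Its processed signals were 99.4 and 451 on replicate 1 and 104 and 1053 on replicate 2. As for Upk1a, the signals of the RNAs labelled control were nearly alike and those of the RNAs labelled Bmp4cKO differed. Here too each pair was read in different dyes on different arrays. The log2 ratio was 1.88 and 2.95, on average 2.41 ± 0.76 (SD, n = 2 arrays; 95% interval 1.73 to 3.09; adjusted p by limma = 0.030), or 5.32-fold.

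Upk3b had the smallest ratio of the 5. Its processed signals were 23.8 and 93.4 on replicate 1 and 40.1 and 212 on replicate 2, and the 23.8 of the RNA labelled control was not well above background. Upk3b therefore passed the filter only through the RNA labelled Bmp4cKO, where it was high, and 4 of the 5 uroplakins were well above background in all 4 channels. The log2 ratio was 1.02 and 1.61, on average 1.31 ± 0.42 (SD, n = 2 arrays; 95% interval 0.86 to 1.77; adjusted p by limma = 0.041), or 2.49-fold. It was 1.71, or 3.28-fold, with plain background subtraction and 2.19, or 4.56-fold, with the processed signals. Upk3bl, a gene named for its likeness to Upk3b and singled out after its values were seen, had log2 ratios of 1.09 and 1.95 (mean 1.52 ± 0.61, SD, n = 2 arrays) and narrowly missed the threshold (limma adjusted p = 0.051).

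Start of expression could not be followed, since the series holds 1 stage. At E14.5 each of the 5 transcripts was well above background on both arrays in the RNA labelled Bmp4cKO. In the RNA labelled control the same held for Upk1a, Upk1b, Upk2 and Upk3a on both arrays and for Upk3b on replicate 2. Only its label makes this RNA the genotype without cre, and Bmp4 and Tbx18 went against the labels. In the RNA labelled control of replicate 1 the spot's mean signal was 2.11 times its local background for Upk3b and 4.24 times for Upk2.

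The fit had 1 degree of freedom from the arrays and 4.03 from the variance shared over all genes, on which the calls mainly rested. With a robust form of that shared variance, Upk1a, Upk1b and Upk2 kept their ratios but missed the threshold (limma adjusted p = 0.075, 0.052 and 0.069). With median centring in place of loess no gene of the 21978 passed (1760 had an unadjusted p under 0.05), while the uroplakin ratios stayed between 1.32 and 3.73.

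**Figure D2:**
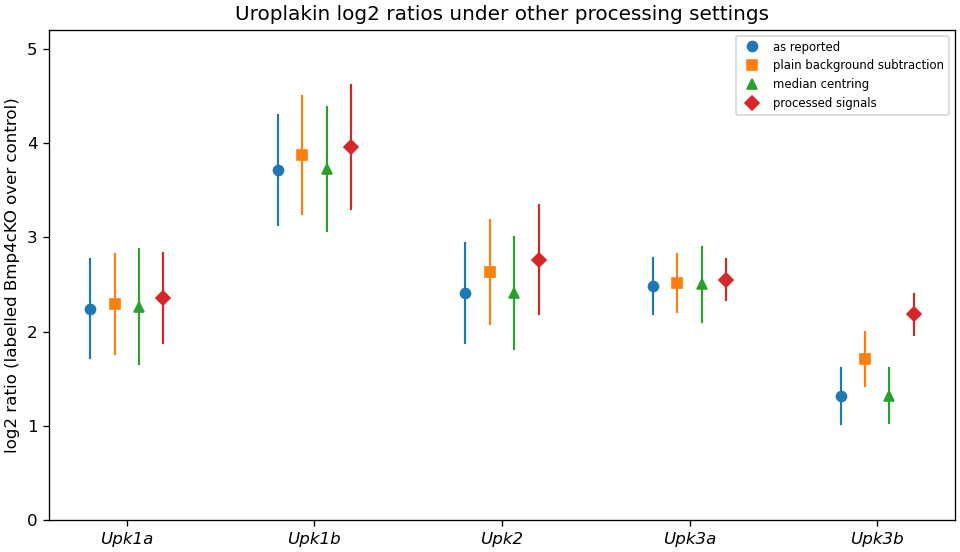
Mean log2 ratio of each uroplakin (symbols; lines join the values of the 2 arrays) as reported and with plain background subtraction, median centring or the scanner's processed signals. The mean of Upk3b runs from 1.31 to 2.19 and that of Upk2 from 2.41 to 2.76, while those of Upk1a, Upk1b and Upk3a move less.

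The tetraspanin genes had the largest and the fourth largest ratio of the 5, with Upk3a and Upk2 between them. Of the 10 differences between 2 members' log2 ratios on the same array, none is given a p-value: an exact two-sided sign-flip test over 2 arrays cannot go below 0.5, and no moderated test of the differences was run. Within the heterodimer UPK1A with UPK2, the tetraspanin gene minus its partner was -0.16 on replicate 1 and -0.17 on replicate 2. In this setting the log2 ratios of these transcripts thus differed by little and by nearly the same amount on both arrays. This compares ratios between the RNAs and not the amounts of the transcripts. Both ratios were larger on replicate 2, by 1.05 for Upk1a and 1.07 for Upk2. The mean difference was -0.34 with plain background subtraction and -0.41 with the processed signals. With the processed signals the ratios were 1.88 and 2.83 for Upk1a and 2.18 and 3.35 for Upk2, so the difference was not the same on both arrays.

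In the other heterodimers the tetraspanin gene had the larger ratio. Upk1b exceeded Upk3a by 0.95 and 1.51 and Upk3b by 2.12 and 2.68. The mean difference between Upk1b and Upk3b, 2.40, fell to 1.77 with the processed signals. Between the tetraspanin genes, Upk1a minus Upk1b was -1.41 and -1.52. Upk2 minus Upk3a changed sign between the arrays, at -0.31 and 0.16. Upk3a exceeded Upk3b by 1.17 on each array, a difference that fell to 0.36 with the processed signals. Upk1b came first and Upk3b last on both arrays. With the processed signals Upk1b stayed first, but on replicate 1 Upk3b at 1.97 lay above Upk1a at 1.88. The means of Upk1a, Upk2 and Upk3a lay closer together than the SD of each.

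The uroplakin ratios were larger than those of most general epithelial genes, a difference described here and not tested. Of 24 measured genes of epithelial adhesion, keratins and tight junctions, Krt19 at 1.41 ± 0.05 and Krt8 at 0.86 ± 0.10 (SD, n = 2 arrays), both keratins of simple epithelia, were higher and none was lower (limma adjusted p = 0.021 and 0.045). The list's median was 0.27 on replicate 1 and 0.41 on replicate 2. Epcam, the epithelial cell adhesion molecule gene, was at 0.14, and the claudin gene Cldn7 at 0.01, both named after their values were seen. Of the 24 genes 15 were higher on both arrays and 3 lower, against 6198 and 6734 of all 21978 genes tested. The means of the 24 ran from -0.86 to 1.41. Upk1a, Upk1b, Upk2 and Upk3a had larger ratios than all 24 genes on both arrays, and Upk3b had larger ratios than 22. Measured from the epithelial median of the same array, Upk1b lay 2.86 and 3.89 higher, Upk3a 1.91 and 2.38, Upk2 1.60 and 2.54, Upk1a 1.45 and 2.36, and Upk3b 0.74 and 1.21.

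Genes of the basal and intermediate urothelial layers were mixed. Of 15 measured, 4 were called higher and none lower, with a median of 0.61. The median was 0.28 without replicate 2 and 0.28 with no filter on dim probes. Of the 15 genes 9 were higher on both arrays and 3 lower, against 6198 and 6734 of all 21978 genes tested. The means ran from -0.71 for Shh, named after its values were seen and not called, to 2.75. Sprr1a, a cornified envelope precursor gene, was at 2.75 ± 1.05, Perp, a desmosomal gene, at 2.60 ± 0.43, Fgfr3, a receptor tyrosine kinase gene, at 1.68 ± 0.30 and Ly6d at 1.55 ± 0.03 (SD, n = 2 arrays; limma adjusted p = 0.039, 0.019, 0.023 and 0.020). A dimmer Fgfr3 probe had 1.25. The basal keratin genes, named after their values were seen as are the other genes of the list that follow, were at 0.06 for Krt5, 0.01 for Krt14, -0.12 for Krt17 and 1.17 for Krt15, the last with 0.40 and 1.95 on the 2 arrays. Cd44, an adhesion receptor gene, was at 0.61. None of these was called. Trp63, a basal transcription factor gene, was at 0.04 on its brighter probe and at 2.56 on a dimmer one, so its probes disagree. Krt20, a keratin of superficial cells, was at 0.28 and 0.93 on the 2 arrays and was not called.

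**Figure D3:**
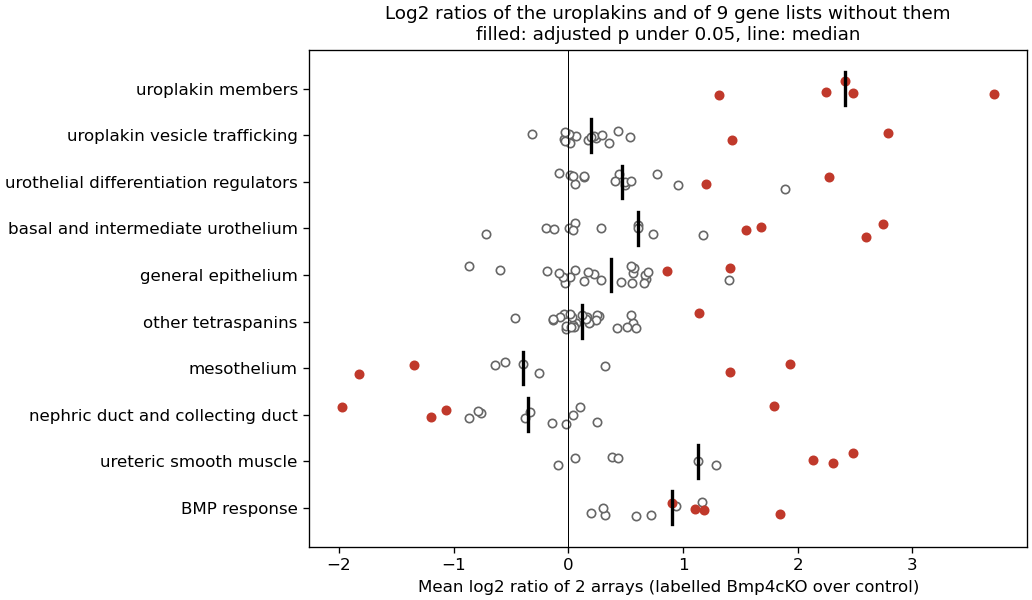
Mean log2 ratio over the 2 arrays of each measured gene (points; filled where the limma adjusted p is under 0.05) for the uroplakins and 9 other lists shown without uroplakins, with the list median as a black line. The uroplakin median of 2.41 lies to the right of the others, with ureteric smooth muscle at 1.13 and general epithelium at 0.37.

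Of 16 regulators of urothelial differentiation, Pparg and Foxa1 were higher and none was lower, with a median of 0.47. Pparg, a nuclear receptor gene of urothelial maturation, had 2.16 and 2.38 on the 2 arrays, on average 2.27 ± 0.16 (SD, n = 2 arrays; adjusted p by limma = 0.016). Foxa1, a forkhead factor gene of endodermal epithelia, had 0.96 and 1.44 (mean 1.20 ± 0.34; limma adjusted p = 0.040). Grhl3, a Grainyhead factor gene of superficial urothelium, named after its values were seen, had 1.21 and 2.57 and was not called (limma adjusted p = 0.067).

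Uroplakins travel to the surface in fusiform vesicles. Of 17 measured genes of vesicle transport, Rab27b and Mal were higher and none was lower, with a median of 0.20. Rab27b, which encodes a small GTPase of those vesicles, had 2.71 and 2.87 (mean 2.79 ± 0.12, SD, n = 2 arrays; limma adjusted p = 0.016), and 2.08 on a dimmer probe. Mal, which encodes an apical sorting protein, had 1.44 and 1.41 (mean 1.43 ± 0.02; limma adjusted p = 0.020).

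Of 27 measured tetraspanin genes other than the uroplakins, Tspan8 was higher at 1.14 ± 0.04 (SD, n = 2 arrays; limma adjusted p = 0.026) and none was lower. Their median was 0.12 (0.067 with no filter on dim probes) and their range of means -0.47 to 1.14, below the means of the 5 uroplakins. On replicate 1, however, Tspan8 at 1.17 lay above Upk3b at 1.02.

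Since Upk3b and Upk1b are also mesothelial, genes of that sheet were examined without them. Of the 9 others, Msln, which encodes mesothelin, at 1.93 ± 0.51 and Krt19 were higher, while Aldh1a2 at -1.83 ± 0.46 and Wt1, a mesothelial transcription factor gene, at -1.34 ± 0.22 were lower (SD, n = 2 arrays; limma adjusted p = 0.026 for Msln, Aldh1a2 and Wt1). The median was -0.39, and 6 of these 9 genes were lower on both arrays, as were 6734 of all 21978 genes tested. Krt19 also marks the urothelium. The summed processed signal of the 9 genes was 48368 and 69241 in the RNAs labelled control and 37652 and 42809 in those labelled Bmp4cKO, where Lrrn4 and Muc16 were not well above background on replicate 2. The part of mesothelium in the Upk3b and Upk1b ratios was not tested.

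Lists of other tissues differed in direction. Of 14 nephric and collecting duct genes, Aqp3, a water channel gene, was higher at 1.79 ± 0.42, and Wnt9b at -1.97 ± 0.51, Ret at -1.20 ± 0.05 and Lhx1 at -1.06 ± 0.17 (-1.68 on a dimmer probe) were lower (SD, n = 2 arrays; limma adjusted p between 0.025 and 0.035). The list's median was -0.36, and its summed processed signal was 14203 and 17771 in the RNAs labelled control and 12736 and 13310 in those labelled Bmp4cKO. Of 9 smooth muscle genes Myh11, Actg2 and Cnn1 were higher, at 2.48, 2.31 and 2.14, and none was lower, with a median of 1.13. Their summed signal was 40340 and 42462 in the RNAs labelled control and 49907 and 74868 in those labelled Bmp4cKO. Of 11 BMP response genes Msx2, Smad9, Id4 and Smad6 were higher, at 1.85, 1.18, 1.11 and 0.90, and none was lower, with a median of 0.90. The part of these tissues in the uroplakin result was not tested.

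The genes whose ratios on the 2 arrays lay nearest to each uroplakin were found by Euclidean distance over the 2 arrays, among 17820 other genes with a RefSeq name. With 2 points per gene this describes size as much as pattern. Nearest to Upk1b, at a distance of 0.59, was Bmp4, then Car3 at 0.91 and Sprr1a at 1.39, so no gene lay close to it. Upk1a and Upk2 had Aldh3b2 and Actg2 as their nearest genes, at distances from 0.13 to 0.17, with Cnn1 next for Upk1a and Myh11 next for Upk2. Upk3a had Perp at 0.16, Ldoc1 at 0.24 and Ctse at 0.30. Upk3b had Syt8, Trim71 and Ncmap, at distances of 0.041 to 0.068.

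**Figure D4:**
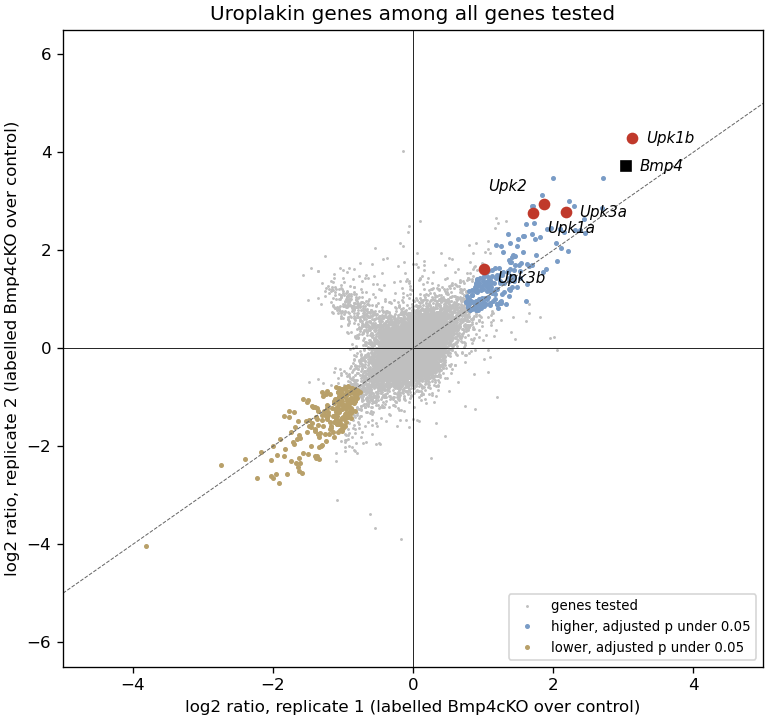
Log2 ratio (Bmp4cKO over control, by the dye labels) of each of the 21978 genes on replicate 1 (horizontal) and replicate 2 (vertical), with genes called higher in blue and lower in tan, uroplakins as red circles, Bmp4 as a black square and equal ratios on the dashed line. The 5 uroplakins lie above the dashed line, from 1.02 and 1.61 for Upk3b to 3.14 and 4.30 for Upk1b.

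Promoters of the members Upk1a, Upk3a and Upk3b are shown, from the table of RefSeq promoters (GRCm38.p6) used here. The lines give the 250 bases before each transcription start in the direction of the gene, with capitals for exact matches to any of 7 motifs on either strand. They lie at chr7:30612735-30612984 (minus strand), chr15:85016891-85017140 (plus) and chr5:136038246-136038495 (plus).
Upk1a: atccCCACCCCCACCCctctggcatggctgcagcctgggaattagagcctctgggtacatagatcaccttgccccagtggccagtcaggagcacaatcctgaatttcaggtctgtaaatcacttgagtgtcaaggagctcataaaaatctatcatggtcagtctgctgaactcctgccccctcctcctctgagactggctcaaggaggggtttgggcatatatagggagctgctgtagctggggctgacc
Upk3a: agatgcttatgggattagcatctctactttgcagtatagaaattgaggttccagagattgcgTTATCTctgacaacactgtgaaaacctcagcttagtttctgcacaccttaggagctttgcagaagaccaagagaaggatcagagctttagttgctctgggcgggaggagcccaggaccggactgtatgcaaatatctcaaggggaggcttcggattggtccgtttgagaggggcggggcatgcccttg
Upk3b: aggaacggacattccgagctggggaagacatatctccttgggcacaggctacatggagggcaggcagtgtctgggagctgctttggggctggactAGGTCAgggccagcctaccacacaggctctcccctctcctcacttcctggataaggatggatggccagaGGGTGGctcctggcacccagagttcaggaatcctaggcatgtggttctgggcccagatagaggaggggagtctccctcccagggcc
The motifs were the nuclear receptor half-site AGGTCA, held by 14.0% of the 32851 promoters of the table in the same window, the Grainyhead core AACCGG (5.62%), the GATA motif AGATAA (9.99%), the Forkhead motif TGTTTAC (3.17%), the KLF motif CCACCC (28.1%), the TATA box TATAAA (12.4%) and the SMAD motif GGCGCC (9.59%). Upk1a held 2 KLF matches that do not overlap, starting 246 and 240 bases before the start. Upk3a held 1 GATA match on its other strand, 188 bases before the start. Upk3b held a half-site 155 bases before the start and a KLF match on its other strand at 86. No motif was held by all 3 promoters, and the matches describe letters only.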

How the data were processed

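Per the labels' protocols, 200 ng of total RNA per sample was amplified once with T7 polymerase and coupled to AlexaFluor dyes. Per the submitters' processing notes, the authors quantified the arrays with Agilent Feature Extraction 10.7.3.1. Per the file headers, spot and background values are scanned intensities. The software had also written background-corrected, dye-normalized intensities (processed signals) and their red-to-green log ratio as a log10, both used as deposited. The deposited value table holds a score, a signed fold change found by comparison with the scanner's log ratios. Its sign follows red over green on the replicate 1 array and the reverse on the other. A size within 0.01 (log2) was found for 99.7% and 99.6% of probes above background in all 4 channels, and both columns had a median of 1. The sample titles put Bmp4cKO first; whether the signed folds follow that order was not stated in the sources used here.

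Background was corrected with normexp (offset 50) on mean signal and median background. Ratios were normalized by loess within each array with control spots at weight 0 (limma 3.58.1, R 4.3.3). Flagged outlier spots were left out and spots of a probe averaged. Ratios were turned by the dye labels. A probe was kept if well above background in both channels of 1 genotype, and the brightest kept probe stood for a gene. Of 39429 probes, 31001 were named through RefSeq (GRCm38.p6, names only). lmFit and eBayes ran over all 21978 genes with Benjamini-Hochberg adjustment, with 1 residual and 4.03 prior degrees of freedom. The fit was tested on simulated data. Each array holds 1 RNA of each genotype, so the ratio itself pairs them. The number of arrays, 2, limits the precision.

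The members and lists were chosen with earlier results of these data known. Genes were named by rule: the members, Bmp4 and Tbx18, up to 4 called genes of a list or else the 2 with the largest ratio, and the 3 genes nearest to each member. Genes outside it are marked in the text as named after their values were seen. Alternatives changed the background correction, normalization, input signal, filter, probe choice, prior and channel model, left out each array, or used the authors' deposited table. Leaving out genes of chromosomes X and Y was chosen after seeing the data.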

Additional observations from a re-analysis of the deposited data

How the results depend on the processing

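With median centring the log2 ratios were 2.27 for Upk1a, 3.73 for Upk1b, 2.41 for Upk2, 2.51 for Upk3a and 1.32 for Upk3b, none past the threshold (limma adjusted p from 0.30 to 0.32), and 0 genes were called higher and 0 lower. With a robust prior Upk1a at 2.25, Upk1b at 3.72 and Upk2 at 2.41 missed it. In the fit of separate channels without a replicate block Upk3b, at 1.31, missed it (limma adjusted p = 0.16). With the array number as a replicate block, the values and calls were those of the ratio fit, 195 genes higher and 225 lower. Genes called higher and lower numbered 339 and 389 with plain background subtraction and 612 and 671 with an intensity trend, and genes at least 2-fold higher and lower on both arrays numbered 223 and 258 with the processed signals, against 127 and 136. In the authors' deposited table, read with its own sign, the mean log2 was -2.36 for Upk1a, -3.97 for Upk1b, -2.76 for Upk2, -2.55 for Upk3a, -2.19 for Upk3b and -3.41 for Bmp4, so members and Bmp4 turn together. Leaving out each array in turn gave 1.72 to 2.77 for Upk1a, 3.14 to 4.30 for Upk1b, 1.88 to 2.95 for Upk2, 2.18 to 2.78 for Upk3a and 1.02 to 1.61 for Upk3b, with no test. Without genes of chromosomes X and Y, 188 genes were higher and 217 lower, and the ratios of the members were those reported. With Upk3b not well above background in 1 channel, it was not tested when all 4 channels had to pass.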
